A study of Mus musculus with 27 samples.

Results

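The 32 genes described here are interferon-stimulated genes, a set of transcripts that cells switch on when they sense interferon. They were picked out by gene symbol from a table of 27304 genes. Each of the 32 was found as 1 row, and all 32 passed the filter on low counts in every comparison. RNA of whole heart tissue was sequenced in bulk 7 days after myocardial infarction (MI) in 27 libraries from 14 mice, 13 of which gave both an infarct and a remote piece. All mice were male ApoE-/- animals on the C57BL/6J strain, which lack apolipoprotein E and are prone to atherosclerosis, and all were fed a western type diet, for 4 weeks before the groups diverged. Adenine was then added to the food of the chronic kidney disease (CKD) mice, at 0.3% over 10 days and at 0.15% over the last 11 days, 4 of them before MI. Control mice stayed on the same diet with no adenine. The groups were CKD infarct (7 libraries), control infarct (6), CKD remote (8) and control remote (6). No group was free of infarction, so the remote pieces are tissue of an infarcted heart and not of a healthy one, and bulk RNA cannot tell fewer cells of a type apart from less RNA per cell.

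Type I interferons bind the receptor made of Ifnar1 and Ifnar2, and the kinases Jak1 and Tyk2 then activate transcription factors that include Stat2. Stat2 and Irf9 are part of the complex ISGF3, which binds the interferon-stimulated response element (ISRE) in the promoters of many interferon-stimulated genes. After infarction, nucleic acids released by dying cells are known to start this pathway through cytosolic sensors and Irf3, mainly in macrophages and other immune cells. The products of the target genes bind viral RNA, cut it or block viral assembly, and several of them feed back on the pathway itself.

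Libraries held 14255456 to 42566498 counts, and the lowest count of any member in a library was 7, for Oas3. Values are given as CPM, the count of a gene divided by the TMM-scaled library size and set to a common total. Marker genes matched the labelled regions in most libraries: the summed level of 10 macrophage markers was 458.5 to 2801 CPM in CKD infarcts and 1372 to 3294 CPM in control infarcts, against 336.5 to 711.5 CPM in CKD remote and 369.3 to 1307 CPM in control remote pieces. The remote piece of control mouse 9180 stood apart, since it held the 1307 CPM of macrophage markers and 10120 CPM of 6 fibroblast markers, the highest of its group in both. The infarct pieces of CKD mice 9172 and 9179 stood apart in the other direction, with 1128 and 458.5 CPM of macrophage markers and with 93600 and 122500 CPM of 12 cardiomyocyte markers, where the other CKD infarcts had 31250 to 62080 CPM and control infarcts 4642 to 32650 CPM. For mouse 9179 the remote piece has CKD in its title and control in its treatment label; it was kept with the CKD group. Fits without the 3 pieces that stand apart, or without the 9179 remote piece, are given where stated. Orders and ranges of group values use all libraries.

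In 21 of the 32 genes the 4 group means stood in the same order, with control infarct highest, then CKD infarct, control remote and CKD remote. In 5 more genes (Irf9, Stat2, Usp18, Mx2 and Parp14) the remote groups changed places, so that CKD remote stood above control remote. The other 6 genes each had an order of their own. Neighbours in this order were not separated by their spread: for all 32 genes the range of the CKD libraries overlapped the range of the control libraries in both regions. Of all genes, 5.13% lay wholly higher and 1.36% wholly lower in CKD infarct than in control infarct libraries, and 0.156% and 0.102% did so in remote pieces. Infarct and remote ranges overlapped for all 32 genes in CKD mice, where 1.16% of all genes lay wholly higher and 1.07% wholly lower. In control mice the infarct range lay wholly above the remote range for 3 of the 32 (Oas3, Mx1 and Lgals3bp), where 16.4% of all genes lay wholly higher and 17.1% wholly lower. These orders and ranges were taken with all libraries only. The remote piece of mouse 9180 was the highest of its group for 31 of the 32 genes and so set the top of their control remote range.

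**Figure D1:**
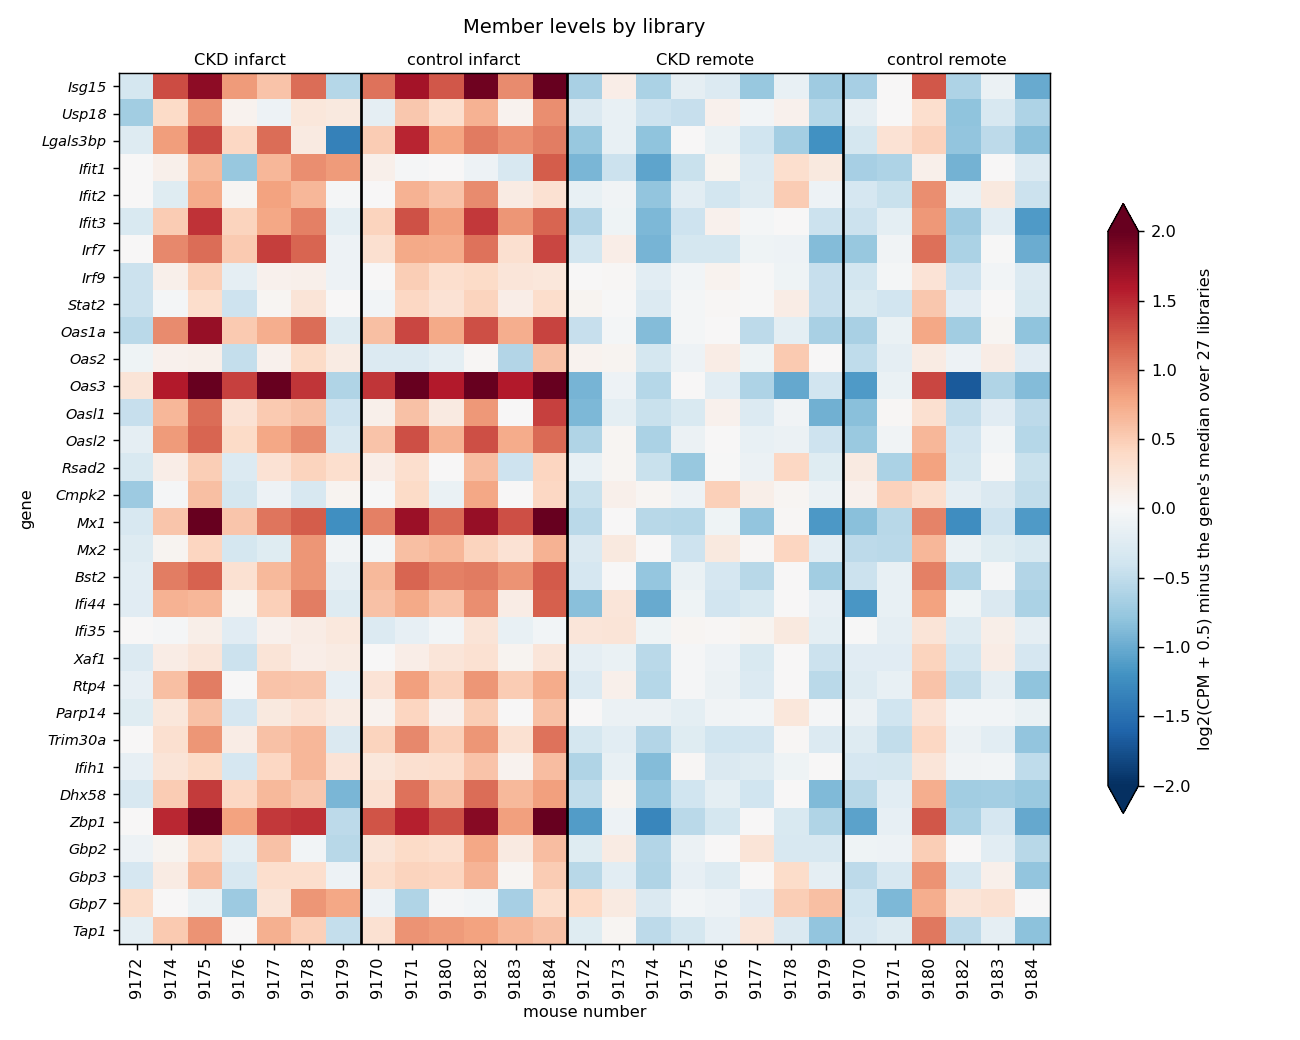
Level of each of the 32 genes (rows, in the order of their roles) in each of the 27 libraries (columns, mouse numbers below), as log2(CPM + 0.5) minus the median of that gene over all libraries. The infarct libraries are mostly red and the remote libraries mostly blue, with the remote piece of control mouse 9180 red among its group and the infarct pieces of CKD mice 9172 and 9179 pale or blue in theirs.

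Calls were made between regions and not between diets. In CKD mice 18 of 32 genes were higher in infarct than in remote tissue and none was lower, by edgeR's quasi-likelihood test with Benjamini-Hochberg adjusted p under 0.05 over all 14770 genes tested. Of all genes tested, 45% were called in that comparison, 24.7% higher and 20.2% lower. The median log2 fold change of the 32 genes was 0.60 (range -0.11 to 2.26), beside -0.01 for all genes. In control mice 23 of 32 genes were higher in infarct tissue and none was lower, where 63.9% of all genes were called, 30.7% higher and 33.2% lower. There the median was 0.71 (range -0.24 to 2.55), again beside -0.01 for all genes. In the whole set 17 genes were called in both diets, 1 in CKD mice alone (Ifit1), 6 in control mice alone (Usp18, Irf9, Stat2, Mx2, Parp14 and Gbp2) and 8 in neither.

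**Figure D2:**
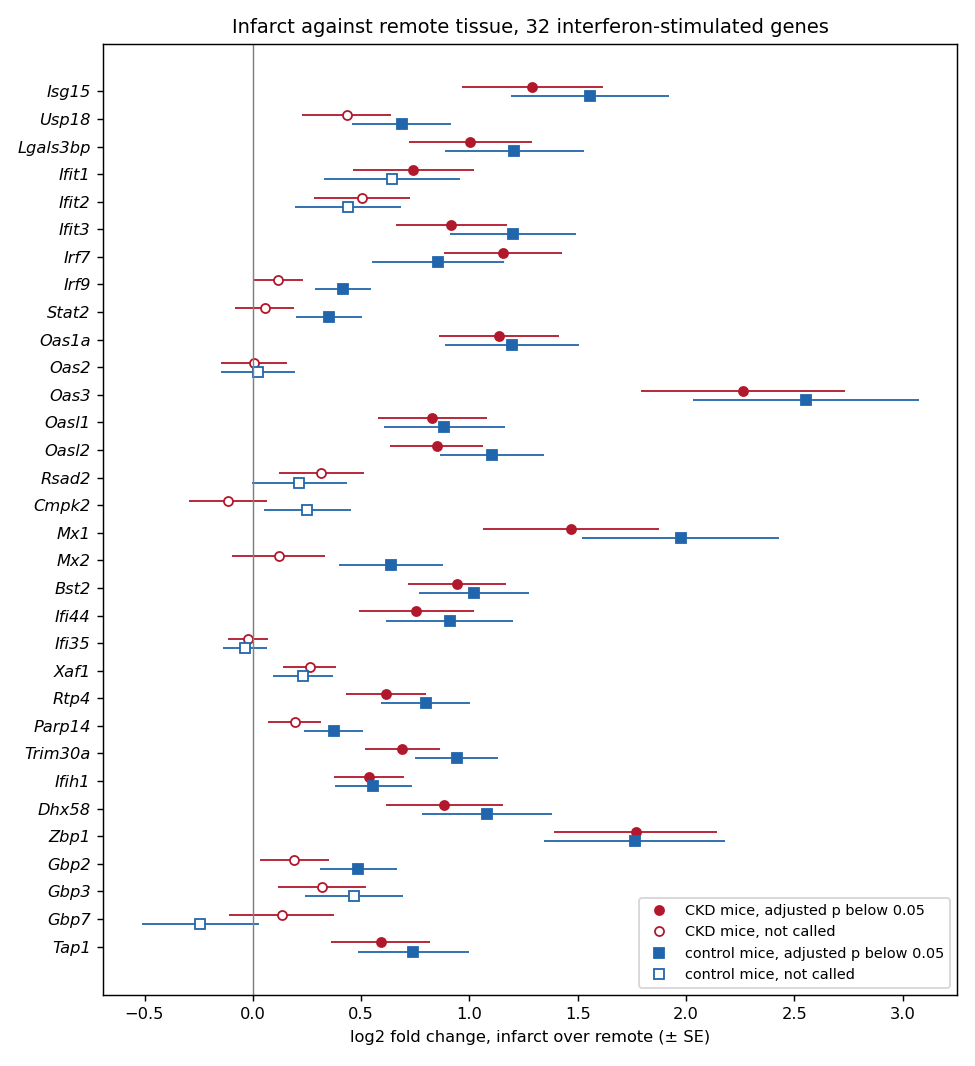
Log2 fold change of infarct over remote tissue for each of the 32 genes, with its standard error as a bar, in CKD mice (red circles) and control mice (blue squares). Filled symbols had an adjusted p under 0.05, 18 in CKD mice and 23 in control mice, and all of these lie to the right of 0, with Oas3 farthest out in both.

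Among the genes for modifier and secreted proteins, Isg15 encodes a ubiquitin-like protein that is attached to other proteins and also released from cells. It had 9.49, 26.1 and 50.7 CPM (lowest, median and highest) in CKD infarct pieces, against 8.30, 10.4 and 15.7 CPM in CKD remote pieces. In control mice it had 27.98, 40.4 and 62.3 CPM in infarct pieces, against 6.89, 11.2 and 34.6 CPM in remote pieces. The lowest CKD infarct values were those of mice 9179 and 9172 and the highest control remote value that of mouse 9180, and the regions overlapped in both diets. Isg15 rose by a log2 fold change of 1.29 ± 0.33 (SE) in CKD mice, with an adjusted p of 0.0033 by edgeR, and by 1.56 ± 0.37 in control mice, with an adjusted p of 0.000693. Lgals3bp, which encodes a secreted glycoprotein that binds galectins, rose by 1.004 and 1.21 in CKD and control mice. Usp18, the protease that removes Isg15 from proteins and blocks signalling at Ifnar2, was called in control mice alone, at 0.69 with an edgeR adjusted p of 0.0107, beside 0.43 and 0.0833 in CKD mice.

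The IFIT proteins bind foreign RNA, and Ifit3 was the only one of the 3 called in both diets. It had 23.3, 41.3 and 79.7 CPM in CKD infarct pieces, against 15.2, 24.3 and 30.7 CPM in CKD remote pieces. The log2 fold change was 0.92 ± 0.26 in CKD mice and 1.20 ± 0.29 in control mice, with edgeR adjusted p of 0.00696 and 0.000913. Of the 31-base words in its transcripts, 61.8% are shared with the neighbouring copy Ifit3b, so reads of the pair may have been split in either direction. Ifit1 was called in CKD mice at 0.74 and missed the threshold in control mice at 0.64 (edgeR adjusted p of 0.0342 and 0.0745). Ifit2, at 0.50 and 0.44, was called in neither.

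Of the transcription factors, Irf7 is the factor that drives interferon alpha genes and is itself induced by interferon. It had 41.1, 86.3 and 115.8 CPM in CKD infarct pieces, against 22.8, 34.4 and 48.3 CPM in CKD remote pieces. In control mice the values were 55.0, 74.6 and 111.5 CPM in infarct pieces, against 21.8, 35.1 and 95.2 CPM in remote pieces. Irf7 rose by 1.16 ± 0.27 in CKD mice and 0.85 ± 0.30 in control mice, with edgeR adjusted p of 0.00192 and 0.0167. Of the ISGF3 subunits, Irf9 rose by 0.42 and Stat2 by 0.35 in control mice, where the call of Stat2 (edgeR adjusted p of 0.0446) was lost in 10 of the alternatives run, such as no filter on low counts (0.0685), and their values in CKD mice were 0.12 and 0.05 with edgeR adjusted p of 0.419 and 0.757.

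Enzymes and enzyme-like proteins of the OAS family held the gene with the highest fold change. Oas3 makes the short oligoadenylates that switch on the RNA-cutting enzyme RNase L. It had 1.51, 7.72 and 18.3 CPM in CKD infarct pieces, against 1, 1.70 and 2.54 CPM in CKD remote pieces. In control mice it had 7.65, 12.1 and 21.2 CPM in infarct pieces, against 0.454, 1.33 and 7.17 CPM in remote pieces. Every control infarct piece lay above every control remote piece, including that of mouse 9180, while in CKD mice the infarct piece of mouse 9179 lay inside the remote range. The increase was 4.80-fold in CKD mice and 5.87-fold in control mice (log2 2.26 ± 0.47 and 2.55 ± 0.52), with edgeR adjusted p of 0.000665 and 0.000185. Without the remote piece of mouse 9180 the log2 fold change in control mice was 3.39 ± 0.49. Oasl2, an OAS-like protein with ubiquitin-like domains, rose by 0.85 ± 0.21 and 1.10 ± 0.24, and it was higher in the infarct than in the remote piece in all 13 mice with both. In mice 9179 and 9180 that difference was only 0.09 and 0.02 on the scale of log2(CPM + 0.5). Oasl2 had 49.1, 63.7 and 80.5 CPM in control infarct pieces, against 19.3, 28.01 and 52.4 CPM in control remote pieces. Oasl1, known in mice to repress translation of Irf7, rose by 0.83 and 0.88. Oas1a rose by 1.14 and 1.196, though 68.7% of the words in its transcripts are shared with Oas1g. Oas2 stood apart from its family at 0.01 and 0.02, with a median of 29.8 CPM in CKD infarct, 23.7 in control infarct, 28.5 in CKD remote and 25.3 in control remote pieces.

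**Figure D3:**
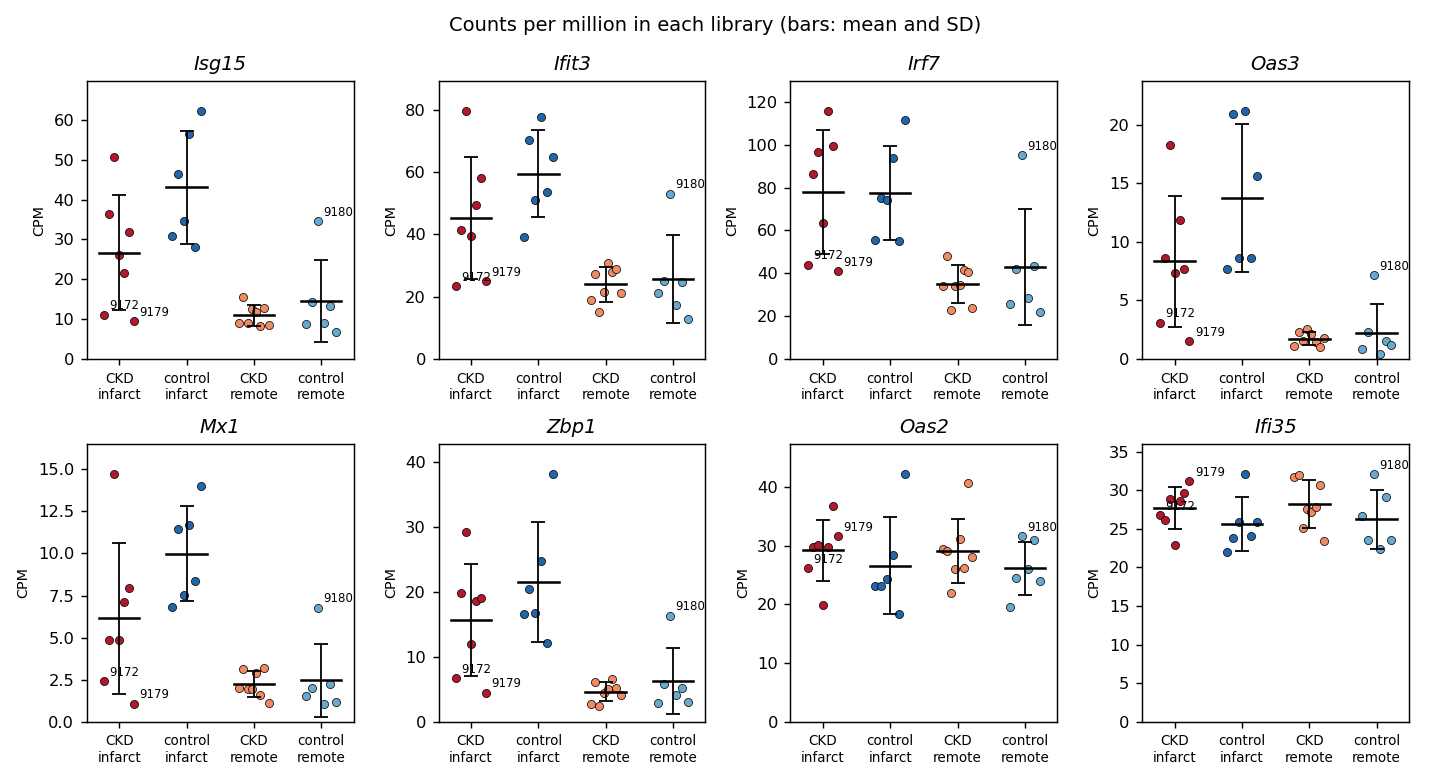
CPM of 8 of the genes in every library of the 4 groups, each point 1 library, with the group mean and SD as bars. Isg15, Ifit3, Irf7, Oas3, Mx1 and Zbp1 have higher means in infarct than in remote pieces, with mice 9172, 9179 and 9180 numbered. In CKD mice the infarct piece of 9179 overlaps the remote pieces in each, and that of 9172 in Isg15, Ifit3, Irf7 and Mx1. In control mice the remote piece of 9180 overlaps the infarct pieces in Isg15, Ifit3, Irf7 and Zbp1, and Oas3 and Mx1 do not overlap. Oas2 and Ifi35 lie in one range in all 4 groups.

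The 11 other antiviral effectors were divided, with 5 called in CKD mice and 7 in control mice. Mx1 encodes a dynamin-like GTPase against influenza viruses, and C57BL/6 mice, like most laboratory strains, are known to carry a defective copy that makes no working protein. Its RNA had 1.06, 4.86 and 14.8 CPM in CKD infarct pieces, against 1.14, 1.99 and 3.19 CPM in CKD remote pieces. In control mice it had 6.82, 9.91 and 14.0 CPM in infarct pieces, against 1.04, 1.77 and 6.78 CPM in remote pieces. Control infarct pieces lay wholly above control remote pieces, by a narrow margin over mouse 9180, and the CKD pieces overlapped. Mx1 rose by 1.47 ± 0.41 and 1.98 ± 0.45, with edgeR adjusted p of 0.00624 and 0.000577, and by 2.61 ± 0.43 in control mice without the remote piece of mouse 9180. Bst2 (tetherin), which holds budding virions at the cell surface, rose by 0.94 ± 0.23 and 1.02 ± 0.25.

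Trim30a, which in mice dampens Toll-like receptor signalling, had 12.2, 18.9 and 28.04 CPM in CKD infarct pieces, against 9.85, 12.0 and 15.4 CPM in CKD remote pieces. In control mice it had 18.8, 24.5 and 32.5 CPM in infarct pieces, against 8.51, 12.7 and 20.1 CPM in remote pieces. It rose by 0.69 ± 0.17 and 0.94 ± 0.19 with edgeR adjusted p of 0.00287 and 0.000174, the lowest adjusted p of the set in control mice. Ifi44, a cytosolic GTP-binding protein, rose by 0.75 and 0.91, and Rtp4, a receptor transport protein also induced by interferon, by 0.62 and 0.80. Mx2 and Parp14 were called in control mice alone, at 0.64 and 0.37, beside 0.12 and 0.19 in CKD mice. Rsad2 (viperin), which makes a chain-terminating nucleotide, was called in neither, at 0.32 and 0.21. Its neighbour in the genome and partner in that pathway, Cmpk2, was called in neither as well, at -0.11 in CKD mice and 0.25 in control mice, with 9.46, 14.7 and 24.5 CPM in CKD infarct pieces, against 11.6, 16.4 and 22.4 CPM in CKD remote pieces. Xaf1, a pro-apoptotic zinc finger protein, had 0.26 and 0.23. Ifi35 had 22.9, 28.5 and 31.1 CPM in CKD infarct pieces and 23.4, 27.7 and 31.9 CPM in CKD remote pieces, with log2 fold changes of -0.02 and -0.04 in CKD and control mice. In control mice it had 21.97, 24.9 and 32.2 CPM in infarct pieces, against 22.4, 25.1 and 32.1 CPM in remote pieces.

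All 3 nucleic acid sensors rose in both diets. Zbp1, which binds Z-form nucleic acid and can start necroptosis, had 4.43, 18.6 and 29.2 CPM in CKD infarct pieces, against 2.39, 4.75 and 6.62 CPM in CKD remote pieces. In control mice it had 12.1, 18.5 and 38.2 CPM in infarct pieces, against 2.88, 4.62 and 16.3 CPM in remote pieces. It rose by 1.77 ± 0.38 in CKD mice and 1.76 ± 0.42 in control mice, with edgeR adjusted p of 0.000815 and 0.000747. The infarct piece was above the remote piece in every one of the 13 mice, as for Oasl2. In mice 9179 and 9180 the Zbp1 difference was only 0.08 and 0.04 on the scale of log2(CPM + 0.5). Dhx58 (LGP2), the regulator of the RNA helicase sensors, rose by 0.88 and 1.08, and Ifih1 (MDA5), the sensor of long double-stranded RNA, by 0.54 and 0.56. Among the guanylate-binding GTPases, which coat the vacuoles of intracellular microbes, Gbp2 was called in control mice at 0.49, beside 0.19 in CKD mice. Gbp3 and Gbp7 were called in neither diet, and Gbp7 had 5.62, 8.64 and 11.9 CPM in control infarct pieces, against 4.69, 10.1 and 15.5 CPM in control remote pieces (log2 fold change -0.24). Tap1, the peptide transporter for MHC class I loading, rose by 0.59 ± 0.23 and 0.74 ± 0.26, with edgeR adjusted p of 0.0383 and 0.0138, and the CKD call was lost in 12 of the alternatives run.

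Markers of other cells also differed between the regions. All 10 macrophage markers were called higher in infarct tissue in both diets, with median log2 fold changes of 1.83 in CKD and 1.92 in control mice, both above the median of the 32 genes. All 6 measured T and NK cell markers were called higher too, although their 7 markers in the table summed to only 2.13 to 9.17 CPM in CKD infarct, 6.59 to 14.5 CPM in control infarct, 0.678 to 2.59 CPM in CKD remote and 0.325 to 4.37 CPM in control remote pieces. All 6 fibroblast markers were called higher in both diets (medians 3.01 and 2.44), as were 4 of 9 monocyte and neutrophil markers in CKD mice and 8 of 9 in control mice. Cardiomyocyte markers were called lower in infarct tissue for 4 of 12 genes in CKD mice and 12 of 12 in control mice. In CKD mice the log2 fold changes of all 12 lay below 0, from -1.06 to -0.36. All 5 endothelial markers were called lower in both diets. The part of these shifts in the member values was not tested. In the infarct pieces of mice 9172 and 9179 and the remote piece of mouse 9180, macrophage markers and the 32 genes lay on the same side of their group. Control infarct pieces did not always rank alike in both. Mouse 9184 had the lowest macrophage marker sum there (1372 CPM) but the highest value for 16 of the 32 genes. Mouse 9183 had 2980 CPM of these markers and the lowest value for 14. Without the infarct pieces of CKD mice 9172 and 9179 the CKD comparison called 21 of the 32 genes higher, with a median of 0.79, while the share of all genes called in either direction was 60.4%, against 45% with all libraries. Without the remote piece of control mouse 9180 the control comparison called 27 of the 32 genes higher, with a median of 0.95, and the 23 genes called with all libraries were among them. The share of all genes called in either direction was then 66.2%, against 63.9% with all libraries. Without the remote piece of mouse 9179 the CKD comparison called 17 of the 32 higher, with Tap1 lost, and 41.4% of all genes in either direction. With that piece counted as control it called 17 higher, and the control comparison called 24 higher, with Gbp3 gained. The shares of all genes called in either direction were then 41.6% and 66.7%.

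The promoters of the members were searched for the ISRE core, written GAAANNGAAA, on both strands and with overlapping matches counted, in the 250 bases before the annotated start in RefSeq (GRCm38.p6). Entries were found for 24 of the 32 genes, with 28 start sites. The motif was present in 12 of the 28 windows (42.9%), beside 978 of 32841 windows of all genes (2.98%). Those 12 windows belong to 12 genes: Bst2, Gbp2, Gbp3, Gbp7, Ifit1, Ifit3, Isg15, Oas1a, Oas3, Rsad2, Stat2 and Trim30a. The GAS motif of interferon gamma signalling, written TTCNNNGAA, was present in 4 of the 28 windows (14.3%), beside 7.02% of all windows. Windows of 5 genes follow, 5′ to 3′ in the direction of the gene, with every base of an ISRE core match in capitals. Isg15, Oas3 and Ifit3 are shown because they were among the genes called higher in infarct tissue in both diets and hold the core, Gbp7 because it holds the core and was called in neither, and Irf7 because it rose in both diets with no match in this window.
Isg15, chr4:156200819-156201068, minus strand: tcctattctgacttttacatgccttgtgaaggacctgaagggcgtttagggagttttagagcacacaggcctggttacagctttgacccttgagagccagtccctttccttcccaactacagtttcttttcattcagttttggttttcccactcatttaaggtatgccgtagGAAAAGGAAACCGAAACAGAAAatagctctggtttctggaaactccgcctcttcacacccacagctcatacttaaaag
Oas3, chr5:120777660-120777909, minus strand: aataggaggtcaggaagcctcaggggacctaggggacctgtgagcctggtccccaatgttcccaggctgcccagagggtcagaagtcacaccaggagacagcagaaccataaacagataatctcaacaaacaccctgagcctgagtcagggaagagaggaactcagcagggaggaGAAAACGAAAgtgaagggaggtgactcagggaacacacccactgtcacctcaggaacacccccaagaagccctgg
Ifit3, chr19:34583279-34583528, plus strand: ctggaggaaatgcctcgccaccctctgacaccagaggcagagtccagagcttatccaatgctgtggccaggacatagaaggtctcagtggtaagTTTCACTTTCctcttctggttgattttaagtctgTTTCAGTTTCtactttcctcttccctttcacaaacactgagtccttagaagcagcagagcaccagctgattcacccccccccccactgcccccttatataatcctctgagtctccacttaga
Gbp7, chr3:142530086-142530335, plus strand: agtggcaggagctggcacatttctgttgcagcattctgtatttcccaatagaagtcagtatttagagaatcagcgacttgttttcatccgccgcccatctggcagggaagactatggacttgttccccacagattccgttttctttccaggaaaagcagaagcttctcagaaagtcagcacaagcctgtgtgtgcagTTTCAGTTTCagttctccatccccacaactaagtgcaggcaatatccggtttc
Irf7, chr7:141266425-141266674, minus strand: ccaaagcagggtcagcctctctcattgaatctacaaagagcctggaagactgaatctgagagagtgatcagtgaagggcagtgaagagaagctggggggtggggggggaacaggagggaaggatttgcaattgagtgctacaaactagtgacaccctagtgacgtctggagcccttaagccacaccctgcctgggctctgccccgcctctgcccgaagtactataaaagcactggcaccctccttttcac
In Isg15 there are 3 overlapping matches between 78 and 57 bases before the start, which together make 1 unbroken run of capitals. Oas3 has 1 match, 75 to 66 bases before the start. Ifit3 has 2 separate matches between 156 and 113 bases before the start, both on the opposite strand, where they read as TTTC repeats, and Gbp7 has 1 such match 53 to 44 bases before the start. The 12 genes with a match had a median log2 fold change of infarct over remote tissue of 0.72 in CKD mice (range 0.05 to 2.26) and 0.79 in control mice (-0.24 to 2.55). The 12 genes with an entry but no match had 0.56 (-0.11 to 1.16) and 0.65 (-0.04 to 1.21). These ranges overlap, and the difference was not tested. A match describes the letters of the window and is not a measured binding site, and the lack of one in Irf7 says only that these letters are not in those 250 bases.

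Within single hearts the contrast varied by mouse. Among CKD mice, the infarct piece was above the remote piece for 31 of 32 genes in mice 9174 and 9175, for 29 in mouse 9177, 28 in mouse 9178, 25 in mouse 9179, 21 in mouse 9172 and 17 in mouse 9176. The median difference over the 32 genes, on the scale of log2(CPM + 0.5), was 1.08 and 1.11 in mice 9174 and 9175 but 0.14 in both mice 9172 and 9176 and 0.18 in mouse 9179. Among control mice the count was 32 in mouse 9184, 31 in 9182, 30 in 9171, 29 in 9170 and 24 in 9183, with medians of 1.52, 1.06, 0.94, 0.68 and 0.39. Mouse 9180 was the exception, with 10 genes above and a median of -0.12. Its remote piece was the highest of the 6 control remote pieces for 31 of the 32 genes, while its infarct piece lay near the middle of its group. In all 7 paired CKD mice 10 of the 32 genes were higher in the infarct piece, where 9.79% of all genes were, and in all 6 control mice 10 genes were, where 29.1% of all genes were. Zbp1 and Oasl2 were the 2 genes on both of those lists.

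**Figure D4:**
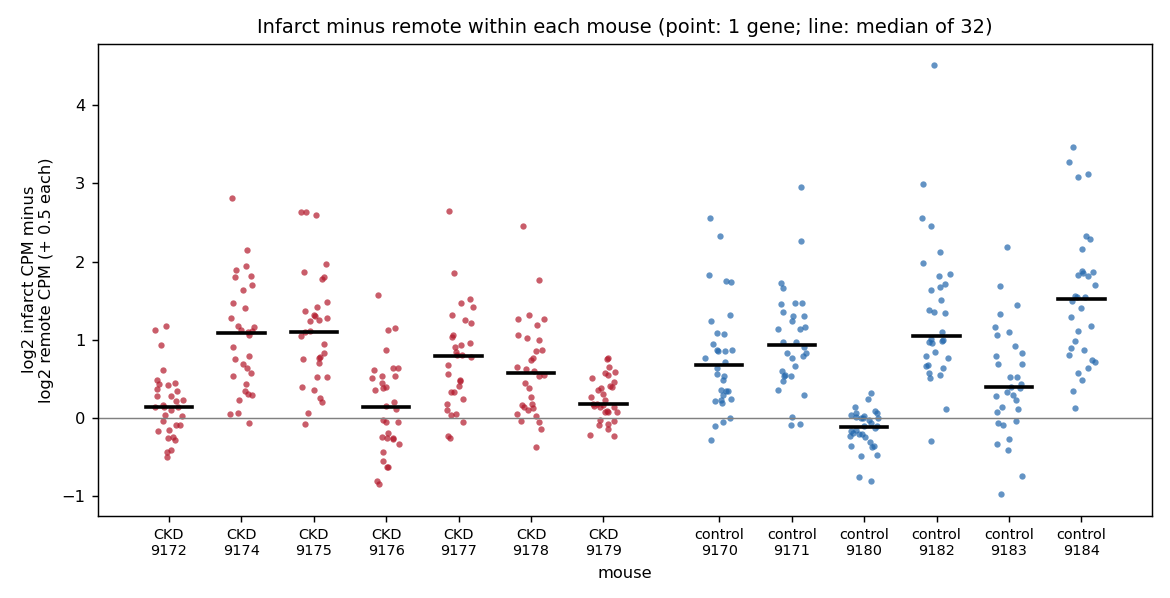
Infarct minus remote level within each of the 13 mice with both pieces, on the log2(CPM + 0.5) scale, each point 1 of the 32 genes and each black line their median. The lines run from 0.14 to 1.11 in CKD mice and from -0.12 in mouse 9180 to 1.52 in mouse 9184 among control mice.

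The comparison of CKD with control mice in infarct tissue asks whether kidney disease altered these genes where the muscle died. None of the 32 genes passed the threshold in either direction by edgeR's quasi-likelihood test, and DESeq2 also called none. This stands beside 20.3% of all 14358 genes tested, 13.1% higher and 7.14% lower in CKD mice. At an unadjusted p under 0.05 there were 3 of the 32, Gbp2, Stat2 and Irf9, beside 40.2% of all genes. The fold changes lay below 0 for 28 genes and above 0 for 4 (Gbp7, Ifit1, Oas2 and Ifi35), with a median of -0.32 (range -0.74 to 0.41) beside -0.02 for all genes.

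Values follow for the gene with the smallest p in each role. Gbp2 had 17.4, 24.8 and 39.1 CPM in CKD infarcts, against 29.3, 33.3 and 44.4 CPM in control infarcts, a log2 fold change of -0.42 ± 0.17 with an edgeR adjusted p of 0.0889, the lowest of the 32. Stat2 had 30.7, 41.9 and 53.2 CPM in CKD infarcts, against 39.9, 52.1 and 56.8 CPM in control infarcts (-0.32 ± 0.14, edgeR adjusted p 0.102). Isg15, whose values are given above, had a mean of 26.7 ± 14.5 CPM in CKD infarcts (SD, n = 7) and 43.1 ± 14.2 CPM in control infarcts (SD, n = 6), a log2 fold change of -0.72 ± 0.35 with an edgeR adjusted p of 0.144. In each of these genes the ranges overlapped, with the lowest CKD library under every control library. Trim30a, at -0.39 ± 0.20, and Tap1, at -0.39 ± 0.21, had edgeR adjusted p of 0.157 and 0.176. Tap1 had 23.7, 46.4 and 62.2 CPM in CKD infarcts, against 41.2, 55.7 and 62.6 CPM in control infarcts. Oasl2, at -0.41 ± 0.24, had an edgeR adjusted p of 0.216, with 26.1, 56.1 and 74.2 CPM in CKD infarcts, against 49.1, 63.7 and 80.5 CPM in control infarcts. Ifit3, at -0.43 ± 0.27, had an edgeR adjusted p of 0.24, with 23.3, 41.3 and 79.7 CPM in CKD infarcts, against 39.3, 59.3 and 77.6 CPM in control infarcts. For all 3 of these genes the ranges overlapped. Zbp1 was at -0.48 ± 0.38 with an edgeR adjusted p of 0.356, and its medians were 18.6 CPM in CKD and 18.5 CPM in control infarcts. Irf7 differed by -0.03, with means of 78.0 ± 28.9 CPM in CKD infarcts (SD, n = 7) and 77.5 ± 22.1 CPM in control infarcts (SD, n = 6). Oas3 and Mx1 had the lowest fold changes, -0.74 ± 0.45 and -0.72 ± 0.43, and Gbp7 the highest, 0.41 ± 0.26.

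This result depended on a few CKD infarct libraries. Mouse 9175 was the highest of its group for 21 of the 32 genes, mouse 9179 the lowest for 12 and mouse 9172 the lowest for 11. Without the library of mouse 9175, 7 of the 32 genes were lower in CKD infarcts at an edgeR adjusted p under 0.05 (Cmpk2, Gbp2, Gbp3, Irf9, Isg15, Mx1 and Stat2). In that fit 4651 genes of the whole table were called in either direction, against 2908 with all libraries. Without the library of mouse 9178, 1 of the 32 was lower (Mx2), beside the 7.14% of all genes that were lower with all libraries. Without mice 9172 and 9179 the median was -0.18, with 26 genes below 0, and 0 genes were called in the whole table. Cardiomyocyte markers were higher in CKD infarcts (5 of 12 called, median log2 fold change 1.43), while 0 of 10 macrophage markers and 0 of 6 fibroblast markers were called (medians -0.42 and -1.04). With a cardiomyocyte score as a covariate the median of the 32 genes was -0.07, and 0 genes were called in the whole table. That score itself differed by diet, from 10.7 to 12.6 in CKD infarcts and from 7.59 to 10.8 in control infarcts. Diet and tissue makeup therefore cannot be told apart in these values.

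**Figure D5:**
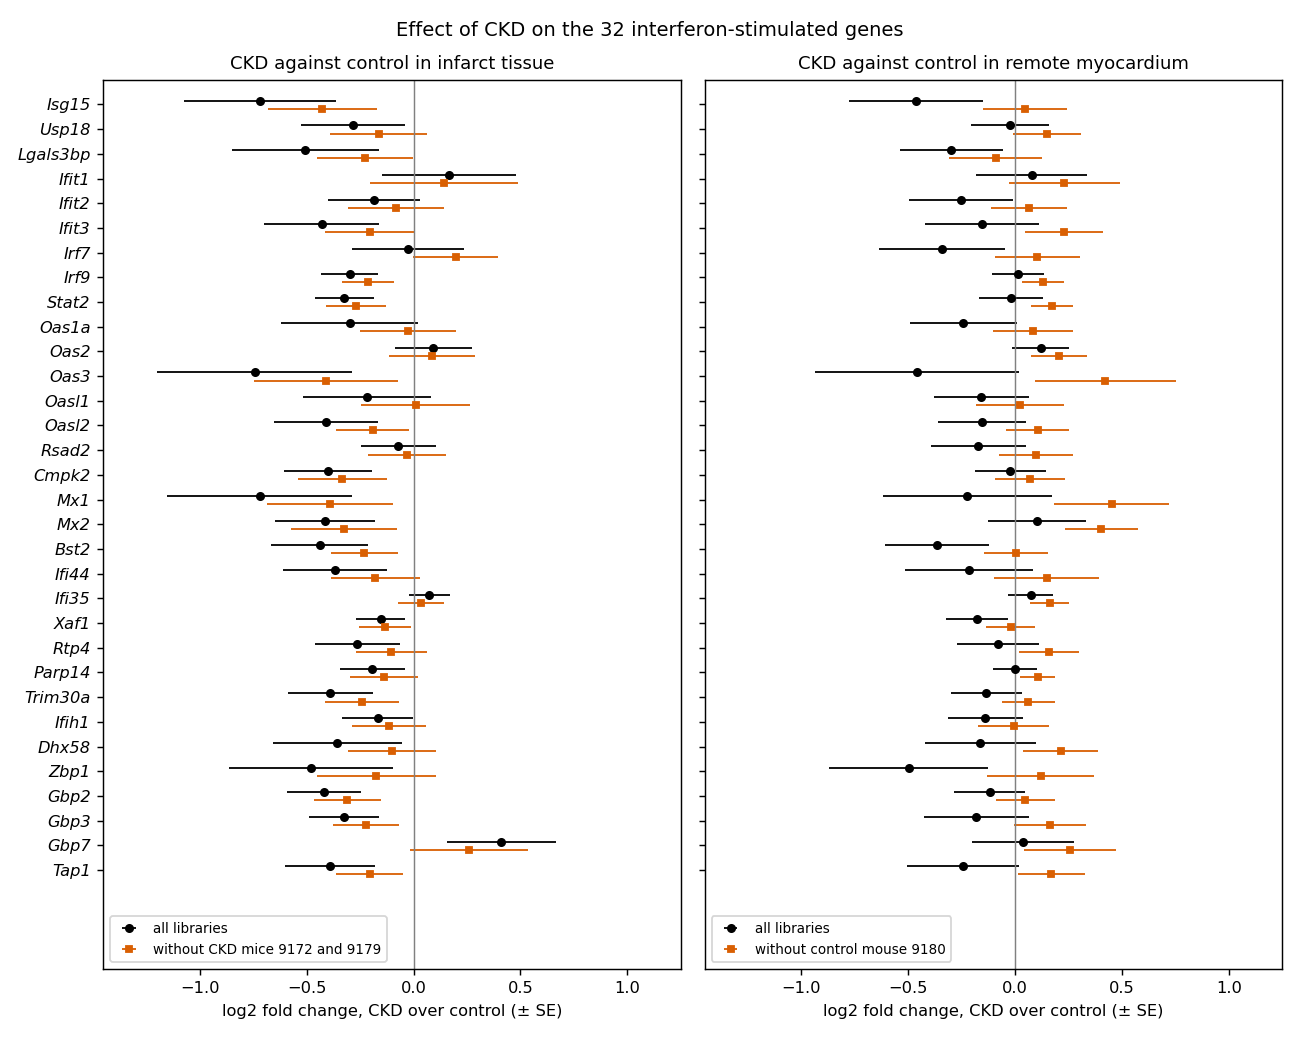
Log2 fold change of CKD over control for each of the 32 genes, with its standard error, in infarct tissue (left) and remote myocardium (right), from all libraries (black circles) and without the libraries that stand apart (orange squares). On the left 28 of the black circles lie below 0, and on the right 26 of them do, while 29 of the orange squares on the right lie above 0.

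In remote myocardium, which asks whether kidney disease altered the surviving muscle, none of the 32 genes was called by edgeR or DESeq2, and 0 had an unadjusted p under 0.05 by edgeR. Of all 13902 genes tested, 0.0216% were called and 11.7% had an unadjusted p under 0.05. Fold changes lay below 0 for 26 genes and above 0 for 6, with a median of -0.16 (range -0.50 to 0.12). Bst2 had 37.8, 51.6 and 65.8 CPM in CKD remote pieces, against 42.7, 53.7 and 131.8 CPM in control remote pieces, a log2 fold change of -0.37 ± 0.24 with the lowest edgeR adjusted p of the set, 0.577. Zbp1 was at -0.50 ± 0.37, Isg15 at -0.46 ± 0.31, Irf7 at -0.34 ± 0.30, Ifit2 at -0.25 ± 0.24, Tap1 at -0.24 ± 0.26, Oas1a at -0.24 ± 0.25 and Gbp3 at -0.18 ± 0.24, with edgeR adjusted p between 0.582 and 0.81. Ifit2 had 6.95, 10.9 and 17.7 CPM in CKD remote pieces, against 8.95, 10.4 and 24.1 CPM in control remote pieces. Tap1 had 18.9, 27.5 and 39.5 CPM in CKD remote pieces, against 18.7, 27.01 and 69.2 CPM in control remote pieces. The ranges overlapped for every gene named here, and the medians of Ifit2 and Tap1 were higher in CKD pieces. Oas1a had 7.72, 11.5 and 14.4 CPM in CKD remote pieces, against 8.06, 11.1 and 25.2 CPM in control remote pieces. Gbp3 had 11.5, 15.3 and 22.8 CPM in CKD remote pieces, against 10.0, 14.0 and 33.3 CPM in control remote pieces. For all 8 of these genes the highest control value was that of mouse 9180. Without that library 29 genes lay above 0 and 3 below (Lgals3bp, Xaf1 and Ifih1), with a median of 0.13 (range -0.09 to 0.45), and none was called. Without the remote piece of mouse 9179 the median was -0.12, and with it counted as control -0.09, with 23 genes below 0 and none called in either case. The direction of the remote values thus changed with 1 library, which also carried the most macrophage and fibroblast marker RNA of its group.

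The difference between the CKD effects, infarct minus remote, tests whether kidney disease acted differently in the regions. By edgeR none of the 32 genes was called, 0 had an unadjusted p under 0.05, and DESeq2 called none, where 0% of all 14770 genes were called by edgeR and 18.9% had an unadjusted p under 0.05. The median difference was -0.17 (range -0.52 to 0.38), with Irf9 at the lowest adjusted p, 0.349. Without mouse 9180's remote piece the median was -0.41 with 31 genes below 0, without the infarct pieces of mice 9172 and 9179 it was 0.05 with 18 above 0, and without all 3 it was -0.25 with 29 below 0. The genes called in infarct against remote tissue in control mice alone, such as Stat2 and Mx2, are therefore not shown to differ between the diets.

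Upstream of the members, transcripts of the interferons were at the edge of detection. All 11 interferon genes looked up were in the table and none passed the filter on low counts. Of these, 7 had no count in any library, and Ifng had the most with 28 counts over 27 libraries. The receptor chains were measured: of 9 receptor and kinase genes, 6 were higher and 1 lower in infarct tissue of CKD mice, and 6 were higher and 3 lower in control mice. Of all genes, 24.7% were higher and 20.2% lower in CKD mice, and 30.7% and 33.2% in control mice. Ifnar1 and Ifnar2 rose by 0.37 and 0.47 in CKD mice and by 0.66 and 0.70 in control mice. The receptor of interferon lambda, Ifnlr1, fell by 0.56 in CKD mice and by 1.07 in control mice.

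Sensors and adaptors that start interferon production were called higher for 7 of 11 genes in CKD mice and 9 of 11 in control mice, with 1 lower in each. Of all genes, 24.7% and 30.7% were higher and 20.2% and 33.2% lower. Tlr7, the endosomal sensor of single-stranded RNA, rose by 2.14 and 2.10, and the kinase Ikbke by 1.84 and 2.11. The adaptor Mavs, through which Ifih1 signals, was lower in infarct tissue, by log2 fold changes of -0.55 and -1.11. It was the 1 gene of this list called between diets in infarct tissue, where 13.1% of all genes were higher in CKD mice. Its value was 0.76 ± 0.17 for CKD against control (edgeR adjusted p 0.0345), a call that was lost without mice 9172 and 9179. Of 8 further transcription factors, 3 were called higher in CKD mice and 4 in control mice, and 0 lower, with median log2 fold changes of 0.22 and 0.25. Irf5 had the highest values of that list, 2.01 and 1.95, and Irf8 rose by 1.81 and 1.74 in CKD and control mice. Both are known for their expression in macrophages and dendritic cells. Of 6 inhibitors 3 and 4 were higher, beside the same shares of all genes. Among them were Socs1 (0.97 and 1.42) and Socs3 (1.35 and 1.998), which block the receptor kinases.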

How the data were processed

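The deposited table holds whole-number read counts per gene, the unit taken from the values. Per the submitters' processing notes the authors used kallisto 0.48.0 and genome build GRCm39. How estimates per transcript became gene counts is not given in the sources used here, nor is a strand setting, so reads of antisense partners cannot be told apart. All 27 count columns were matched to a sample by title.

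In R 4.3.3, edgeR 4.0.16 (with limma 3.58.1) was used: filterByExpr, TMM scaling, quasi-likelihood F test, Benjamini-Hochberg adjustment over all genes tested, threshold 0.05. Diets were compared using the libraries of 1 region at a time. Region contrasts, and the difference of the diet effects, used 4 group means fitted to all 27 libraries. Standard errors are the log2 fold change divided by the square root of F. DESeq2 1.42.0, size factors, no filter, mouse as a block, a cardiomyocyte score as a covariate, other placements of the 9179 remote library and left-out libraries were alternatives. The fits were also run on simulated independent libraries with a single dispersion for all genes. That setting lacks the shared animals and the outlying pieces of these data, and no result here rests on it. No 2 libraries of a group were alike within sampling noise (lowest chi-square per degree of freedom 9.18 over 79 pairs). Libraries of 1 mouse share an animal: their residual correlation ran from -0.102 to 0.397 (median 0.172) over 13 mice, beside a median of -0.02 between mice.

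The members and the lists of markers and pathway genes were chosen with earlier results of these data known. All 32 members are reported. Values by library are given for the gene with the smallest p in each role for CKD against control, and for up to 3 genes by smallest p in either direction between regions. Values beyond that, such as those of Mx1 and Oas2, were chosen after they had been seen. Shared words of 31 bases were counted in GENCODE M21 transcripts (GRCm38), and promoter sequences come from RefSeq, a different build from the counts. Trac and Hbb-bs were not analysed here, and 1 gene of the pathway lists is not reported here.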

Additional observations from a re-analysis of the deposited data

Results flagged for a closer look

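Libraries were checked for being set off from the rest of their group by a gap that is large for the range of the group. Chance flags about 1 in 20 pairs of gene and group where values are independent and normally spread, but these pairs share libraries. Of 128 pairs checked, 17 held such a library. In 14 of the 17 that library was the remote piece of control mouse 9180, the highest of its group: Isg15 34.6, Ifit2 24.1, Ifit3 53.0, Irf7 95.2, Oasl2 52.4, Oas3 7.17, Stat2 60.7, Mx1 6.78, Mx2 6.66, Dhx58 13.8, Bst2 132, Rtp4 30.9, Zbp1 16.3 and Tap1 69.2 CPM. Beside these values, that piece held 50740 CPM of cardiomyocyte markers, the lowest of the remote pieces of both diets. In the remote piece of CKD mouse 9178 the highest values of the group were set off for Ifit2 (17.7 CPM) and Parp14 (36.9 CPM). In the infarct piece of control mouse 9184 the same held for Ifit1 (14.2 CPM). The part of tissue makeup in these values was not tested.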

How the results depend on the processing

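Counts of members called higher in infarct tissue ran from 14 to 20 in CKD mice and from 21 to 27 in control mice when libraries were left out in turn, and the medians from 0.50 to 0.71 and from 0.62 to 0.95. In the same fits the genes of the whole table called in either direction ran from 4967 to 8401 and from 8790 to 9856. In CKD mice the call of Tap1 was lost in 12 of the alternatives run, that of Ifit1 in 7, Ifi44 in 3 and Dhx58 in 1. In control mice the call of Stat2 was lost in 10, Gbp2 in 2 and Parp14 in 1. With mouse as a replicate block there were 19 and 25 genes higher, 18 and 23 of them shared with the fit without it, and no call of a member was lost. In that fit 48.8% and 66.1% of all genes were called in either direction, against 45% and 63.9% without the block. The difference between diets then had a median of -0.26 and 0 calls. For CKD against control in infarct tissue the number of members called lower ran from 0 to 7 with libraries left out, 7 without mouse 9175 and 1 without mouse 9178, and the median from -0.44 to -0.26. In remote tissue the median ran from -0.22 to 0.13 with libraries left out, and it was 0.26 with the cardiomyocyte covariate, with 0 calls. Single members there ran, with libraries left out, up to their value above 0 without mouse 9180: Tap1 from -0.35 to 0.17, Isg15 from -0.59 to 0.046, Gbp3 from -0.28 to 0.16, Ifit2 from -0.37 to 0.065, Zbp1 from -0.64 to 0.12, Oas1a from -0.34 to 0.084, Bst2 from -0.45 to 0.0033 and Irf7 from -0.46 to 0.10. With the covariate they were 0.35, 0.31, 0.34, 0.19, 0.39, 0.29, 0.18 and 0.35 in the same order. The cause was not tested. For all genes in infarct tissue, the count called between diets was 2908 by edgeR and 4517 by DESeq2, and ran from 0 to 4651 with libraries left out. In remote tissue edgeR called 3 genes and DESeq2 154, and for the difference 0 and 571. Fits without all 3 libraries that stand apart were added after seeing the data. The depth of low genes such as Oas3, with 7 counts in 1 library, limits the precision of their remote values.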

Other observations

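Other genes of interferon signalling are given as values with no explanation. Of 53 tested further interferon-stimulated genes, 28 were higher and 2 lower in infarct tissue of CKD mice, and 34 were higher and 0 lower in control mice, where 24.7% and 30.7% of all genes were higher and 20.2% and 33.2% lower. Ms4a4c, a membrane protein of the Ms4a family, rose by 3.22 and 2.63, Ifi209, of the cluster of interferon-inducible DNA-binding proteins, by 2.20 and 2.07, Epsti1 by 2.04 and 1.89 and Trim30d by 1.24 and 1.33, in CKD and control mice. Between diets in infarct tissue 1 of the 53 was called, where 7.14% of all genes were lower in CKD mice. That was Trim21, the cytosolic antibody receptor, at -0.46 ± 0.15 with an edgeR adjusted p of 0.0444. Without the infarct pieces of CKD mice 9172 and 9179 that call was lost, as was that of Psmb10 given next, since 0 genes were then called in the whole table.

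Of 23 tested targets that respond mainly to interferon gamma, 9 were higher and 2 lower in infarct tissue of CKD mice, and 9 were higher and 6 lower in control mice, beside the same shares of all genes. Ciita, the master regulator of MHC class II genes, rose by 1.55 and 1.22, Cxcl10, a chemokine for T cells, by 2.20 and 2.41, and B2m, the light chain of MHC class I, by 1.01 and 0.80. Psmb10, an immunoproteasome subunit, was higher in infarct tissue of CKD against control mice, at 0.37 ± 0.12 with an edgeR adjusted p of 0.0478, and was lower in infarct than in remote tissue of control mice at -0.36. Cxcl9 had 0.21 and -0.01 between regions and was not called.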
